A study of Mesocricetus auratus with 8 samples.

Results

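The mitochondrial carrier family was examined in hearts of golden hamsters (Mesocricetus auratus), 1 polyA RNA library from each of 8 females aged 25 weeks. Members were the rows of the count table named Slc25a followed by a number. With 1 row of the family not analysed here, this gave 41 genes of the 20360 in the table. Of these, 34 had a mean of at least 50 counts over the 8 libraries, the minimum set for measuring spread, and 7 did not. The series design names wild-type animals and animals with Myh6 loss of heterozygosity, killed ahead of the onset of dilated cardiomyopathy, but the animal codes (M5F56, M5F55, M5F22, M5F19, M5F16, M5F12, M5F7 and M5F5) carry no genotype. Genotypes were therefore not compared, and the spread between animals holds whatever genotype each one had.

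Mitochondrial carriers are small proteins of the inner membrane that exchange nucleotides, phosphate, carboxylic acids, amino acids, cofactors and metal ions between the cytosol and the matrix. In heart muscle the exchange of ADP for ATP and the import of phosphate feed the ATP synthase. The malate-aspartate shuttle carries reducing equivalents from glycolysis to the respiratory chain.

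Levels are CPM, the counts of a gene relative to a library total scaled by the trimmed mean of M-values and expressed on the usual CPM scale. They are not divided by transcript length. A share or ratio of counts between genes therefore also carries their lengths and is compared only between libraries. Library totals ran from 13608500 to 15255764 counts, and 3 counts, the limit that a count of 0 allows, came to 0.199 to 0.214 CPM. All 8 cardiomyocyte markers (Tnnt2, Actc1, Myl2, Myl3, Tnni3, Ryr2, Pln and Mb) were present in every library. Their summed level had a low of 64701 CPM in M5F12 and a high of 81887 CPM in M5F7, with a median of 75435. The 4 liver markers summed to 110.5 CPM in M5F5 and to at most 1.37 CPM in the other 7 libraries.

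The carriers took 0.923% (M5F16) to 0.994% (M5F5) of all counts of a library. Slc25a4 and Slc25a3 together made up 82.1% to 85.0% of those carrier counts. Of the 34 carriers past the count minimum, 29 varied between animals by more than counting error, against 86.4% of all genes. The test was a chi-square test of the counts against equal relative abundance, with Benjamini-Hochberg adjustment over all 10909 genes tested. The 5 that did not pass were Slc25a14, Slc25a16, Slc25a17, Slc25a36 and Slc25a38. Only Slc25a29 and Slc25a45 both passed this test and spanned 2-fold or more between the highest and the lowest library, 2 of 34 against 13.9% of all genes. With the top and the bottom library of each gene set aside (the trimmed span), no carrier reached 2-fold, against 2.85% of all genes. The median carrier spanned 1.45-fold, and so did the median gene. At a mean count of 500 or more, the medians were 1.25-fold for 14 carriers and 1.33-fold for all genes.

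**Figure D1:**
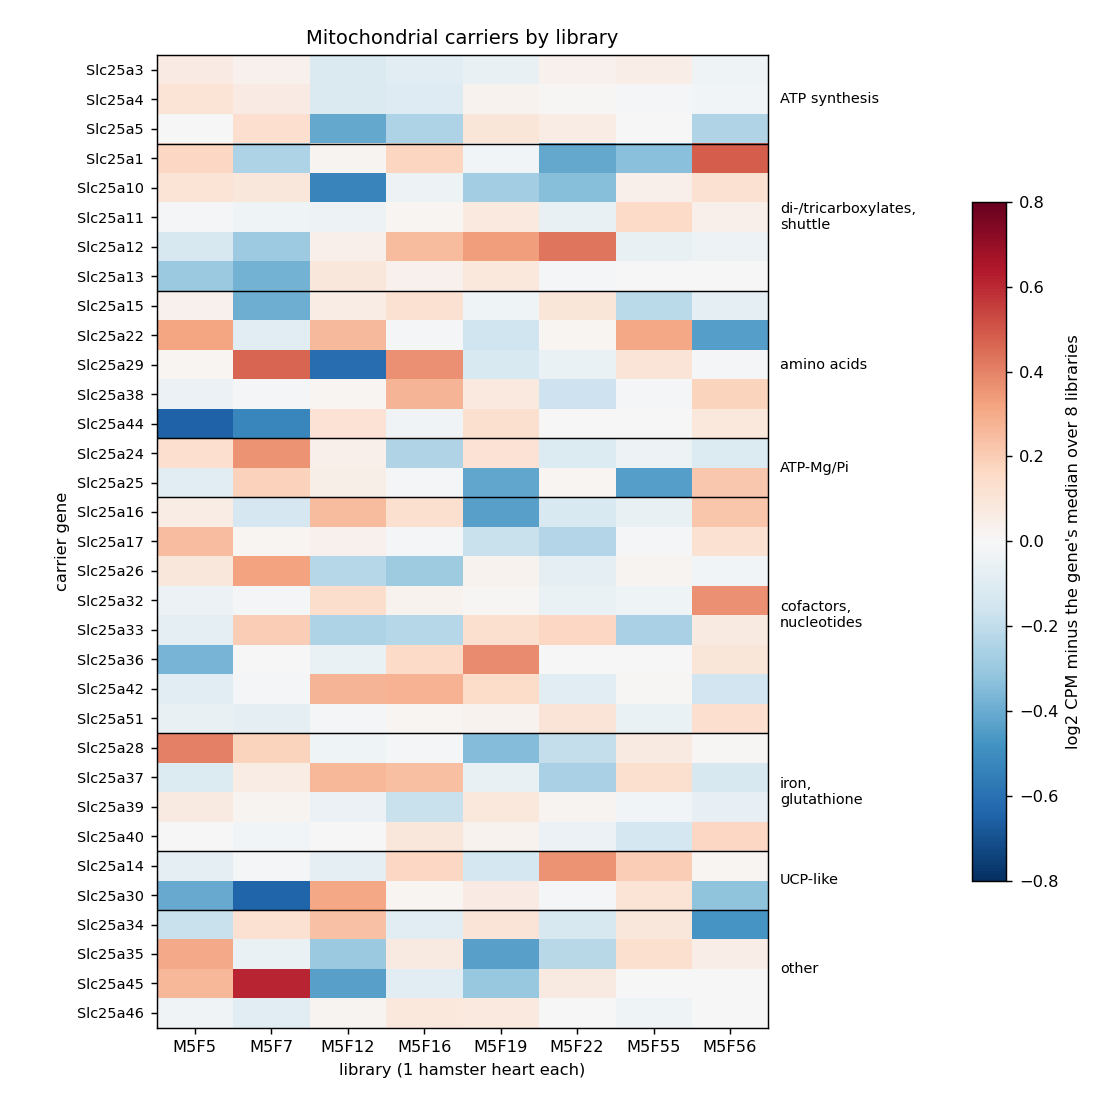
Log2 CPM of the carriers past the count minimum, with 1 not shown (rows, ordered by role), in each library (columns), less the median of that gene over the 8 libraries; red is above and blue below the median. Slc25a3, Slc25a4 and Slc25a46 stay pale in all 8 libraries, while Slc25a44 and Slc25a30 are blue in M5F5 and M5F7, and Slc25a45 is red in M5F7.

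**Figure D2:**
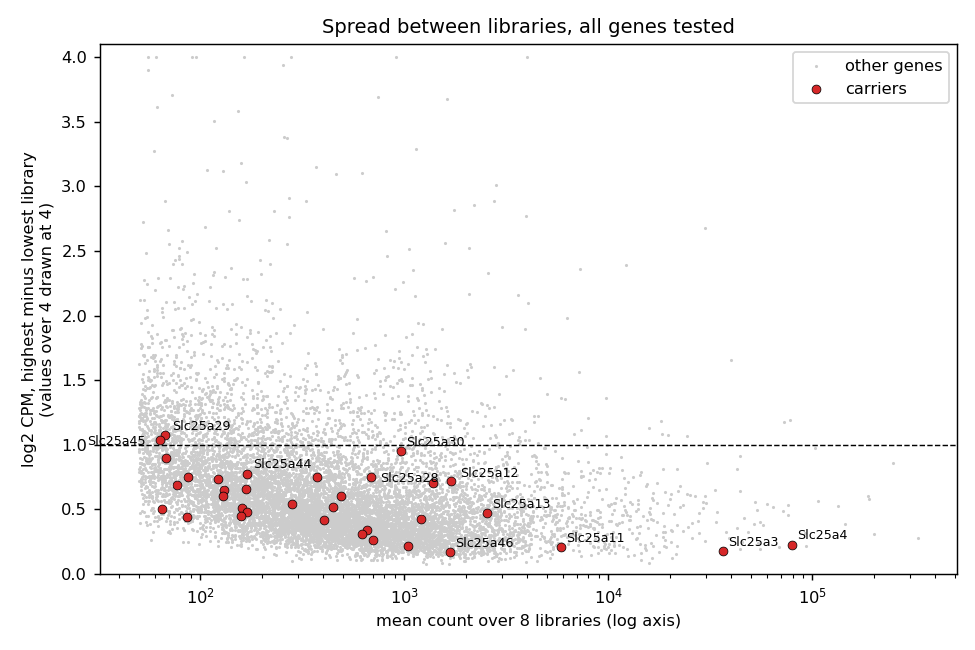
Difference in log2 CPM between the highest and the lowest library against the mean count (log axis), for the carriers (red) and the other genes tested (grey); the dashed line is a 2-fold difference, and values over 4 are drawn at 4. Slc25a29 and Slc25a45, both at low counts, lie above the line, and Slc25a30 lies just under it.

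The carriers of ATP synthesis had the smallest median span of the role groups, 1.17-fold over 3 genes. That median is the span of Slc25a4, the carrier with the most counts, while Slc25a5, with fewer counts, spanned 1.45-fold. For all genes the median span was 1.33-fold at a mean count of 500 or more and 1.57-fold at 50 to under 500. The part of count depth was not tested. Slc25a4, the ADP/ATP exchanger of heart and skeletal muscle, had a median of 5496 CPM and was at 5938 CPM in M5F5, 5754 in M5F7, 5597 in M5F19, 5523 in M5F22, 5469 in M5F55, 5421 in M5F56, 5109 in M5F16 and 5068 in M5F12. The highest and the lowest value were 1.17-fold apart. Their 95% Poisson intervals, 5897 to 5978 and 5031 to 5105 CPM, did not overlap; these intervals cover counting error only. Slc25a3, the phosphate carrier, lay between 2343 CPM (M5F12) and 2647 CPM (M5F5) with a median of 2535, a 1.13-fold span. The ratio of Slc25a4 to Slc25a3 counts lay between 2.08 (M5F55) and 2.30 (M5F19).

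Slc25a5, the ADP/ATP exchanger found in most tissues, was at 15.3 CPM in M5F12, 17.1 in both M5F16 and M5F56, and 20.2 to 22.2 in the other 5 libraries. Of the summed Slc25a4 and Slc25a5 counts, Slc25a4 had a median share of 99.6%, with the lowest share in M5F19 (Wilson 95% interval 99.57 to 99.65%) and the highest in M5F12 (99.66 to 99.74%). The 2 proteins are close paralogs, and how reads shared between such genes were assigned is not given in the sources used here. The Slc25a5 level is uncertain for that reason, and whether reads of Slc25a4 were counted under it was not tested. Slc25a31, the ADP/ATP exchanger of the testis, had 0 to 4 counts in a library.

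Slc25a4 was examined with its partners in ATP synthesis over the 8 libraries. With the mean log2 CPM of 14 ATP synthase genes, Pearson r was 0.94 (exact permutation p = 0.00213, adjusted p = 0.0128). Spearman's rho was 0.83 (exact permutation p = 0.0154, adjusted p = 0.0461). Leaving out the highest and lowest Slc25a4 libraries, M5F12 and M5F5, gave r = 0.88 over 6. The adjusted p of r lay between 0.0113 and 0.0357 over 11 other settings, including each library left out. That of rho passed 0.05 in 4 of the 11 and reached 0.331 without M5F12. Of the 14 ATP synthase genes, 13 were lowest in M5F12, against 13.9% of all genes tested that were lowest there. The summed cardiomyocyte markers were lowest there too, and next to lowest in M5F16 (69833 CPM). In M5F12, 6 of the 8 markers were at their lowest. Pln was lowest in M5F55. Ryr2 went the other way, at 1336 CPM in M5F12 and 1626 in M5F16, above its median of 1277. The macrophage markers summed to 103.5 CPM in M5F12 and to 50.6 to 81.6 CPM elsewhere. The part of these in the relation was not tested, and in bulk tissue fewer cells of a type cannot be told apart from less RNA per cell.

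For Slc25a4 with Slc25a3, r was 0.80 (exact permutation p = 0.0154, adjusted p = 0.0308) and rho 0.76 (exact permutation p = 0.0368, adjusted p = 0.0735). Without M5F5 and M5F12 r was 0.60. For Slc25a4 with Slc25a5, r was 0.82 (exact permutation p = 0.0127, adjusted p = 0.0308) and rho 0.86 (exact permutation p = 0.0107, adjusted p = 0.0461), with r = 0.85 without the same libraries. Both depended on single libraries and on the scaling. The adjusted p of r rose to 0.0571 or more for Slc25a3 without M5F5, M5F7, M5F12, M5F16 or M5F22 (at most 0.190), and for Slc25a5 it was 0.0863 without M5F16, 0.0861 without M5F7, 0.0571 without M5F22 and 0.0561 without M5F56. With plain total counts r was 0.74 for Slc25a3 (adjusted p = 0.133) and 0.53 for Slc25a5 (adjusted p = 0.348).

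**Figure D3:**
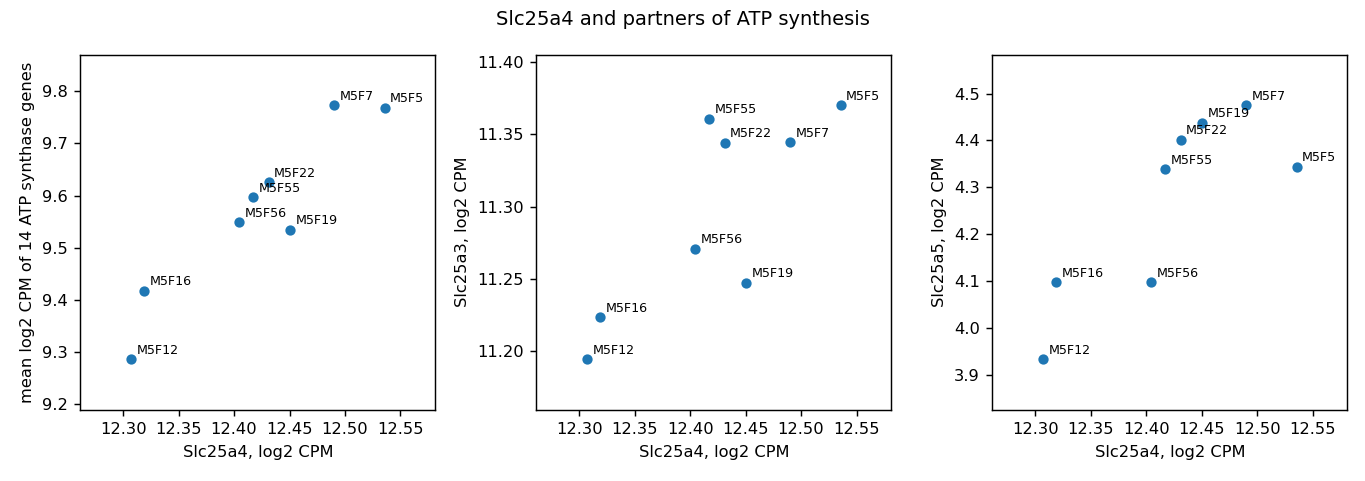
Log2 CPM of Slc25a4 (horizontal) against the mean log2 CPM of 14 ATP synthase genes, Slc25a3 and Slc25a5 (vertical), 1 point per library. M5F12 lies lowest on both axes of all 3 panels, with M5F16 next to it on the Slc25a4 axis, and M5F5 lies highest on that axis.

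The carriers of the malate-aspartate shuttle differed in their spread. Slc25a11, which exchanges oxoglutarate for malate, had a low of 382 CPM in M5F22 and a high of 442 CPM in M5F55 with a median of 398, a 1.16-fold span. Slc25a12 (aralar, the calcium-regulated aspartate/glutamate carrier of muscle and brain) was highest in M5F22 at 148 CPM, followed by M5F19 (139), M5F16 (131), M5F12 (114), M5F56 (107), M5F55 (106), M5F5 (101) and M5F7 (90.1), a 1.65-fold span around a median of 110 CPM. Slc25a13 (citrin, its liver-rich paralog) had 148 CPM in M5F5 and 140 CPM in M5F7, and 181 to 194 CPM in the other 6 libraries, with a median of 182. M5F5 and M5F7 were thus the lowest libraries for both aspartate/glutamate carriers.

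The share of Slc25a12 in the summed Slc25a12 and Slc25a13 counts was 45.1% in M5F22 (Wilson 95% interval 43.7 to 46.5%), 41.9% in M5F19, 41.4% in M5F16, 40.6% in M5F5, 39.2% in M5F7, 37.0% in both M5F56 and M5F12 and 36.8% in M5F55 (35.4 to 38.3%). The interval of M5F22 lay above those of the other 7 libraries. Slc25a12 with Slc25a11 gave r = -0.030 (exact permutation p = 0.945, adjusted p = 0.945) and rho = -0.14 (exact permutation p = 0.752, adjusted p = 0.902), with r = 0.12 without M5F19 and M5F22. The direction of r flipped with DESeq2 size factors (0.024) and without M5F22 or M5F55. No coefficient is given for Slc25a12 with Slc25a13, because the values of Slc25a13 fell into separate clusters. The enzymes of the shuttle, Got1, Got2, Mdh1 and Mdh2, spanned 1.15-fold to 1.29-fold, and 0 of the 4 reached 2-fold, against 13.9% of all genes.

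**Figure D4:**
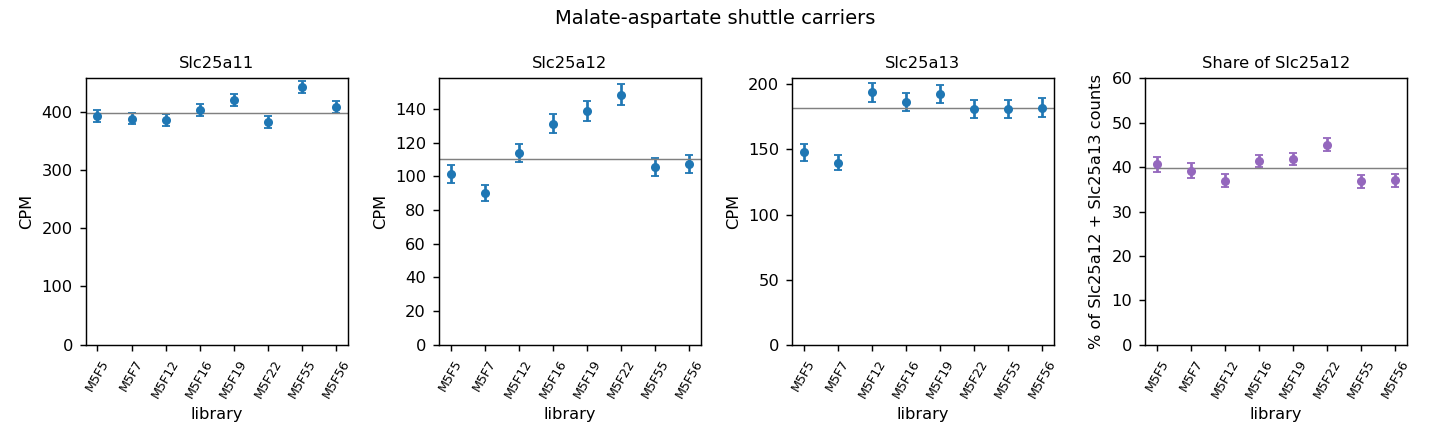
CPM of Slc25a11, Slc25a12 and Slc25a13 in each library with 95% Poisson intervals, and the share of Slc25a12 in the summed Slc25a12 and Slc25a13 counts with Wilson 95% intervals; grey lines are medians over the 8 libraries. Slc25a13 is low in M5F5 (148) and M5F7 (140), while Slc25a12 is high in M5F22 (148), M5F19 (139) and M5F16 (131).

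The other carriers of carboxylic acids had fewer counts. Slc25a1, the citrate carrier, had 51 to 93 counts in a library and lay between 3.48 CPM (M5F22) and 6.52 CPM (M5F56) (median 4.64), a 1.86-fold span that reached 2-fold with plain total counts. Slc25a10, the dicarboxylate carrier, had a low of 6.59 CPM in M5F12 and a high of 10.4 CPM in M5F56 with a median of 9.53. Slc25a21, the oxodicarboxylate carrier, had 2 counts in M5F5 and 0 in the other 7.

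The 5 amino acid carriers past the count minimum had a median span of 1.69-fold, against 1.57-fold for all genes with a mean of 50 to under 500 counts. Of the 5, 4 differed beyond counting error, against 86.4% of all genes. Slc25a44 had its lowest values in the same libraries as citrin. This carrier of branched-chain amino acids had 7.93 CPM in M5F5 and 8.63 CPM in M5F7, and 12.2 to 13.6 CPM in the other 6. The 95% Poisson interval of M5F5 ran from 6.52 to 9.54 CPM and that of M5F19, the highest, from 11.8 to 15.6. Its span was 1.71-fold. Its trimmed span of 1.56-fold was the largest among the 34 carriers.

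Slc25a22, a glutamate carrier, was at 31.2 CPM in M5F5, 31.1 in M5F55, 30.1 in M5F12, 25.3 in M5F22, 24.8 in M5F16, 23.6 in M5F7, 22.5 in M5F19 and 18.5 in M5F56, a 1.69-fold span. M5F56 stood lowest, and M5F5, M5F55 and M5F12 stood above the rest. Slc25a29, which carries lysine, arginine and other basic amino acids, had the widest span, 2.11-fold, on 42 to 90 counts. It was at 6.17 CPM in M5F7 (95% Poisson interval 4.96 to 7.58), 5.76 in M5F16 and 2.91 in M5F12 (2.10 to 3.94), with at most 4.79 in the other 5 and a median of 4.46. Its span fell under 2-fold without M5F7 or without M5F12, and with a prior count of 5 in place of 0.5. Slc25a15, the ornithine carrier of the urea cycle, lay between 8.63 CPM (M5F7) and 12.3 CPM (M5F16) (median 11.3). Slc25a38, which supplies glycine for heme synthesis, ran from 5.12 to 6.95 CPM (median 5.76) and did not differ beyond counting error. Slc25a18, a second glutamate carrier, had 0 to 2 counts in a library.

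Slc25a24 and Slc25a25 exchange ATP-Mg for phosphate and are regulated by calcium. Slc25a25 was at 8.75 CPM in M5F55 and 8.88 in M5F19, and at 11.2 to 13.8 in the other 6 libraries. Its median was 11.9 CPM, its span 1.58-fold and its trimmed span 1.52-fold. Slc25a24 had a low of 7.35 CPM in M5F16 and a high of 11.2 CPM in M5F7 (median 8.71). The count table lists a further gene of this kind by identifier only: LOC106022054, which the RefSeq gene table (assembly BCM_Maur_2.0) pairs with Slc25a23. It lies outside the 41 members and lay between 18.8 CPM (M5F56) and 30.9 CPM (M5F19) with a median of 23.9.

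The carriers of cofactors and nucleotides held 9 of the 34 genes, and 6 of the 9 differed beyond counting error, against 86.4% of all genes. Slc25a51, which imports NAD, had a low of 67.6 CPM in M5F7 and a high of 78.4 CPM in M5F56 (median 71.4), a 1.16-fold span. Slc25a42, which imports coenzyme A, was at 97.2 CPM in M5F16, 96.9 in M5F12 and 88.8 in M5F19, and at 72.3 to 80.6 in the other 5 (median 80.3). Slc25a26, the carrier of the methyl donor S-adenosylmethionine, was at 42.3 CPM in M5F7 and at 27.9 to 36.1 elsewhere (median 33.9).

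Slc25a32, tied to folate and flavin transport, was at 34.5 CPM in M5F56 and at 25.7 to 29.5 in the other 7 libraries. Slc25a33, a pyrimidine nucleotide carrier, lay between 9.30 CPM (M5F55) and 12.7 CPM (M5F7) (median 11.1). Slc25a36, its paralog, had its low in M5F5 (4.50 CPM) and its high in M5F19 (7.58 CPM), around a median of 5.83, on 63 to 111 counts. Slc25a36, Slc25a16 (3.89 to 6.31 CPM, median 5.28) and the peroxisomal member Slc25a17 (9.97 to 13.9 CPM, median 11.7) did not pass the test for a difference beyond counting error.

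The carriers of iron and glutathione held 4 genes. Slc25a28 (mitoferrin 2, an iron importer of most tissues) was at 61.8 CPM in M5F5, 52.8 in M5F7, 49.1 in M5F55, 47.0 in M5F56, 46.4 in M5F16, 45.5 in M5F12, 40.9 in M5F22 and 36.7 in M5F19, a 1.68-fold span. Slc25a37 (mitoferrin 1, best known from red cell precursors) was at 36.4 CPM in M5F12 and 35.9 in M5F16, and lowest in M5F22 at 25.3 (median 30.3). Alas2, an erythroid marker named after its values were seen, was at 11.1 CPM in M5F22 and at 23.5 to 33.9 CPM in the other 7 libraries, highest in M5F16, and its part was not tested.

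Over the 8 libraries the mitoferrins gave r = 0.10 (exact permutation p = 0.809, adjusted p = 0.945) and rho = 0.024 (exact permutation p = 0.977, adjusted p = 0.977), with r = 0.43 without M5F5 and M5F19 and r = -0.15 without M5F22. Slc25a39, the glutathione importer, had a low of 43.4 CPM in M5F16 and a high of 52.2 CPM in M5F19 (1.20-fold). Slc25a40, its paralog, lay between 38.3 CPM (M5F55) and 47.4 CPM (M5F56) (1.24-fold). This pair gave r = -0.41 (exact permutation p = 0.300, adjusted p = 0.450) and rho = -0.29 (exact permutation p = 0.501, adjusted p = 0.751), with r = -0.37 without M5F16 and M5F19.

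Of the carriers past the count minimum that resemble uncoupling proteins, Slc25a30 had the wider span. It was at 87.1 CPM in M5F12 (95% Poisson interval 82.3 to 92.0), 75.9 in M5F55 and 73.5 in M5F19. M5F16 and M5F22 had 71.0 and 69.5 CPM, M5F56 had 56.2, M5F5 had 53.1 and M5F7 had 45.1 (41.7 to 48.7). M5F7, M5F5 and M5F56 lay below the other 5, and the span of 1.93-fold was the widest among the 14 carriers with a mean count of at least 500. Slc25a14 ran from 3.89 to 5.53 CPM (median 4.30) and did not pass the test for counting error. Slc25a27, best known from brain, lay under the count minimum with 26 to 60 counts and spanned 2.29-fold, with its lowest level of 1.80 CPM in M5F12.

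The uncoupling proteins themselves belong to the family but stand under other symbols. Ucp1, the heat-producing protein of brown fat, had 0 counts in all 8 libraries. Ucp2 had a low of 2.50 CPM in M5F5 and a high of 5.06 CPM in M5F12, 2.01-fold. Ucp3, of skeletal muscle and heart, had 13 counts in M5F7 (0.891 CPM) and 59 in M5F12 (4.09 CPM), below the count minimum. Mtch1 and Mtch2, outer membrane relatives, spanned 1.45-fold and 1.15-fold.

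The remaining members include carriers with no settled substrate. Slc25a46, an outer membrane protein of mitochondrial shape, had the narrowest span of the 34, 1.13-fold (109 CPM in M5F7 to 122 in M5F16, median 115). Slc25a34 was at 114 CPM in M5F12, 106 in M5F7, 104 in M5F19 and 103 in M5F55, and at 85.7 to 91.2 in 3 others and 69.9 in M5F56. Slc25a35 lay between 6.42 CPM (M5F19) and 10.7 CPM (M5F5) (median 8.70). Slc25a45 was at 6.44 CPM in M5F7 (95% Poisson interval 5.21 to 7.88), 5.07 in M5F5 and 3.12 in M5F12 (2.28 to 4.17), a 2.05-fold span around a median of 4.22 CPM, on 45 to 94 counts. Its span fell under 2-fold without M5F7 or M5F12, with plain total counts and with a prior count of 5.

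Slc25a43 (25 to 42 counts), Slc25a48 (28 to 74) and Slc25a47 (2 to 18) lay under the count minimum. Slc25a48 was highest in M5F16 at 4.90 CPM and lowest in M5F5. Slc25a47, a gene of liver, was highest in M5F12 at 1.25 CPM, while the liver markers were highest in M5F5. With no count minimum, Slc25a27, Slc25a47 and Slc25a48 also spanned 2-fold beyond counting error, and Slc25a47 did so in its trimmed span too. That made 5 of 41 carriers, against 3846 of at most 20360 genes. For the trimmed span it was 1 of 41 carriers, against 1938 of at most 20360 genes. Genes without any count were not tested, so these shares of all genes are lower limits.

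**Figure D5:**
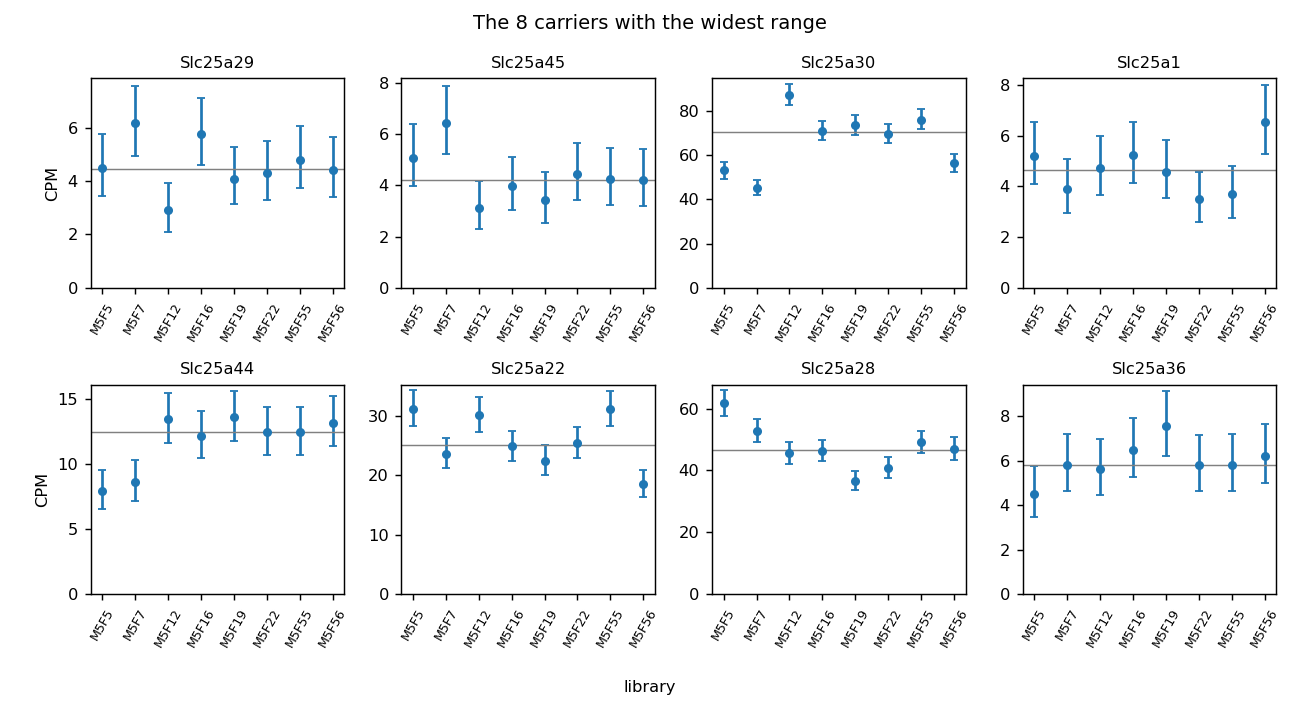
CPM in each library, with 95% Poisson intervals and the median (grey line), of the 8 carriers with the largest difference between highest and lowest library; each panel has its own scale from 0. Slc25a44 is low in M5F5 (7.93) and M5F7 (8.63), Slc25a30 is low in those libraries (53.1 and 45.1) and in M5F56 (56.2), and Slc25a28 is high in M5F5 (61.8).

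M5F5 and M5F7 recurred as a pair, a pattern noticed after the values were seen. They were the lowest libraries of Slc25a12, Slc25a13, Slc25a30, Slc25a44 and Slc25a51, 5 of the 34 carriers (14.7%), against 15.6% of all genes tested. They were also the highest of 5 carriers (Slc25a4, Slc25a24, Slc25a26, Slc25a28 and Slc25a45), again 14.7%, and of 14.7% of all genes. Both shares of the carriers were near those of all genes. In the same libraries the 6 endothelial markers summed to 1114 and 1224 CPM, against 764 to 1052 in the other 6. Cdh5, Kdr and Tie1 were highest in both. Pecam1 was higher in M5F12 (209 CPM) than in M5F5 (195), and Tek was higher in M5F55 (149) than in M5F5 (148). Emcn was higher in M5F56 (64.0 CPM) than in M5F7 (60.7). The 6 macrophage markers summed to 50.6 and 57.9 CPM, against 67.7 to 103.5. Csf1r, C1qb and C1qc were lowest in both. C1qa was lower in M5F22 (15.2 CPM) than in M5F7 (17.5), Cd68 was lowest in M5F22 and Adgre1 in M5F16. The 6 fibroblast markers summed to 918 and 919 CPM, against 785 to 882, but did not move together. Col1a1 was higher in both libraries than in any other (202 and 171 CPM), and Pdgfra was lower (24.3 and 25.6 CPM). The others were at neither end as a pair. The cardiomyocyte markers summed to 80697 and 81887 CPM, against 64701 to 80563. Of these, Myl2, Myl3 and Tnni3 were highest in both and Ryr2 lowest (1128 and 1172 CPM), with the others at neither end as a pair. Of the 5 adipocyte markers, Adipoq and Lep had 0 counts everywhere. Plin1 had at most 2 counts in a library and Cidec at most 5, with 0 in M5F5 and M5F7. Fabp4 alone made up the level of this list in the pair, 281 and 260.0 CPM, against 142 to 241. The 6 smooth muscle and pericyte markers summed to 1307 CPM in M5F5 and 1647 in M5F7, against 1165 to 1376. Among these, Rgs5 (759 CPM in M5F5 and 996 in M5F7) and Pdgfrb were highest in both libraries. Acta2 was lowest in M5F5 (330 CPM) and next to highest in M5F7, while Myh11, Tagln and Cnn1 were next to lowest in M5F7. The 3 brown fat markers, with Ucp1 and Elovl3 at 0, lay between 6.21 and 9.56 CPM over the 8 libraries. The part of these markers was not tested.

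Genes that work with the carriers were described in the same way. Carriers enter the inner membrane through the TOM pore, the small TIM chaperones and the TIM22 insertase, and 0 of 11 measured genes of this route spanned 2-fold, against 13.9% of all genes, with a median of 1.34-fold. Of 18 other transporters of the mitochondrial membranes, 2 did so, against the same 13.9%. They were Sfxn2 (2.37-fold) and Micu3 (2.49-fold), a regulator of the calcium uniporter. The pyruvate carrier genes Mpc1 and Mpc2 spanned 1.33-fold and 1.30-fold, and the porins Vdac1, Vdac2 and Vdac3 1.32-fold, 1.16-fold and 1.12-fold. The median over those 18 was 1.39-fold. Of 14 ATP synthase genes (median 1.37-fold) only Atp5o reached 2-fold, from 28.6 CPM in M5F12 to 78.4 in M5F7, again against 13.9% of all genes. The 14 were not every ATP synthase gene tested. Atp5i, with a log2 range of 0.678, was not among them.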

How the data were processed

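The authors deposited 1 table of counts, whole numbers per gene for 8 libraries. The submitters' processing notes name RSEM, Bowtie2 2.2.5 and HISAT2 2.0.4 without a role for any. No source used here gives the genome build, the annotation or the handling of shared reads. In the RefSeq gene table (BCM_Maur_2.0), 6 members overlap another gene (Slc25a3, Slc25a5, Slc25a25, Slc25a37, Slc25a38 and Slc25a43), so their counts are uncertain.

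Counts were scaled by TMM (edgeR 4.0.16, R 4.3.3; factors 0.960 to 1.05), with a prior count of 0.5 on the log2 scale. The 10909 genes whose mean reached 50 counts were tested by chi-square against equal relative abundance, Benjamini-Hochberg adjusted at 0.05. A gene was called when it also spanned 2-fold. The test and the Poisson and Wilson intervals measure counting error only. No molecular identifiers are named in the labels, so PCR copies may be among the counts. Relations used exact two-sided permutation over all 40320 pairings (Python 3.11.15, scipy 1.17.1). Of 7 relations listed, 6 were computed and adjusted together within each coefficient. None is given where more than 0.5 of the span of a measure was empty and each side held 2 or more libraries.

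Values by library, or the lowest, median and highest, are given for the 6 carriers of highest median CPM (which also reflects transcript length), the 8 of widest range, the 4 of widest trimmed range (highest and lowest library dropped) and those in relations. The own values of 1 carrier past the count minimum and those of 1 marker list are not reported here. Members and lists were chosen with earlier results of these data known. The method was tested on simulated data. Alternatives were DESeq2 1.42.0 size factors, total counts, no count minimum, a mean count of 500, a prior count of 5 and each library left out.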

Additional observations from a re-analysis of the deposited data

Results flagged for a closer look

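Slc25a32 in M5F56 stood apart from the other libraries. On the log2 scale its gap to the nearest library was 0.530 of the whole range, above the critical value of Dixon's test for 8 samples. It was at 34.5 CPM there and at 29.5 CPM or less in the other 7. Chance flags about 1 in 20 such sets, and 34 carriers were examined.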

How the results depend on the processing

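Carriers spanning 2-fold, 2 of 34, became 5 of 41 with no count minimum and 0 of 14 at a mean count of 500 or more. The count was 0 at a prior count of 5, and 0 to 2 with each library left out (0 without M5F7 or M5F12). For the trimmed span the count of 0 became 1 with no minimum. For all genes, 1519 of 10909 became 3846 with no minimum and 324 of 4683 at a mean count of 500. The 3846 are among the 20360 genes in the table, of which those with 0 counts in all libraries were not tested. The 311 by trimmed span became 1938 and 86, and 143 (without M5F7) to 276 with a library left out. A higher minimum tests fewer genes, and with a library fewer that range is narrower by construction; otherwise the cause was not tested. The median span of the carriers, 1.45-fold, was 1.57-fold with no count minimum, 1.25-fold at a mean count of 500, 1.47-fold with total counts and 1.41-fold to 1.44-fold with a library left out. The Slc25a4 share, rerun only with libraries left out, was 99.6% to 99.7%.

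For Slc25a4 with the ATP synthase genes, r was 0.91 to 0.97 over all 11 settings. With Slc25a3 r was 0.74 with total counts and 0.70 to 0.89 with a library left out; with Slc25a5 it was 0.53 with total counts and 0.78 to 0.91. For Slc25a12 with Slc25a11 r was 0.024 with DESeq2 size factors and -0.26 to 0.33 with a library left out, reversing without M5F22 (0.30) and M5F55 (0.33). For the mitoferrins it was -0.15 (without M5F22) to 0.43. Slc25a4 with Slc25a3 without M5F56, and with Slc25a5 without M5F12, gave no r because values fell into clusters. Of 209 recomputed ranges of named carriers, 201 stayed on the same side of the threshold. Those that did not were 3 of 11 for Slc25a29 and 4 of 11 for Slc25a45, the only carriers called, and 1 of 11 for Slc25a1. Others, such as Slc25a4 (1.17-fold), lay far under 2-fold and had little room to change. The test for counting error was less steady. With a library left out, the adjusted chi-square p reached 0.357 for Slc25a39, 0.197 for Slc25a45 and 0.179 for Slc25a40. It reached 0.130 for Slc25a1, 0.0906 for Slc25a29 and 0.0711 for Slc25a46. For Slc25a39 it was 0.233 with total counts. Slc25a36, not past the test with all libraries, had 0.0486 without M5F55. Depth limits the carriers of few counts, such as Slc25a29 and Slc25a45, with 42 to 94 counts in a library.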
